A study of Mus musculus with 16 samples.

Results

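The genes of the cytoplasmic ribosome's own proteins were followed in whole hearts taken from mouse embryos at embryonic day 10.5. A gene counted as a member if its symbol was Rpl or Rps with a number and at most 1 letter, or Rplp0, Rplp1, Rplp2 or Rpsa, if it was not a pseudogene, and if it averaged at least 10 CPM (reads per 1000000 counted reads) over all hearts. Of 27179 gene IDs in the deposited table, 83 had such a symbol, 2 were dropped as pseudogenes and 14 as too low, and 67 members remained: 41 of the large and 26 of the small ribosomal subunit. All 67 passed the filter on low counts among the 15785 genes tested. The 16 hearts came from 7 litters and from 4 genotypes with 4 hearts each. Ing4+/+ Ing5+/+ is the wild-type, and Ing4+/- Ing5+/+ lacks 1 copy of Ing4. Ing4+/+ Ing5-/- lacks both copies of Ing5, and Ing4+/- Ing5-/- combines these losses, keeping a single copy of Ing4 and none of Ing5. The proteins ING4 and ING5 are related readers of methylated histone H3 in histone acetyltransferase complexes, and the series' title names acetylation of histone H3 at lysine 14 and the epicardium. The labels do not give the deleted part of either gene. They give no treatment and no other allele.

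Ribosomal proteins line the surface of the ribosomal RNA in both subunits. The small subunit reads the messenger RNA and the large subunit joins the amino acids. Nearly every ribosomal protein is needed once per ribosome, so its genes are usually expressed together. Their messenger RNAs typically begin with a run of pyrimidines, C and T in the gene, through which growth signalling by mTOR and the RNA-binding protein LARP1 controls their translation. Hearts of this age are growing fast, and mutations in several members cause the inherited anaemia of Diamond and Blackfan, in which heart defects also occur.

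Start sites of 49 of the 67 members were found in the RefSeq promoter table (GRCm38.p6), and a pyrimidine run marked most of them. A run of at least 8 C or T on the sense strand, within the 100 bases centred on the start, was present in 42 of the 49 (85.71%). The same was true of 30.86% of 7988 other protein-coding genes that averaged 10 CPM or more, and of 35.71% of all 27025 genes in the table. CCGGAAGT, searched on both strands over all 300 bases of each entry, was found in 22.45% of the members and 9.439% of the other expressed genes. TATAAA was found in 8.163 and 5.971%, CACGTG in 10.2 and 10.9%, and GGGCGG in 61.22 and 68.87%. Matches of different motifs could overlap and were counted for each. A match is a description of the letters only. The stretches below run from 40 bases before to 30 bases from the annotated start, 5′ to 3′ on the sense strand, and capitals mark every pyrimidine run of at least 8 bases. They show the called gene Rps7, the most abundant member Rpl4, 3 genes with long runs across or next to the start, and Rpl19, which had no such run in this stretch. Only the first promoter entry of each gene was used. For Rpl19 the start in that entry lay inside the gene, which begins at base 98022003 of chromosome 11, and other starts were not searched.
Rps7, chr12:28635924-28635993, minus strand: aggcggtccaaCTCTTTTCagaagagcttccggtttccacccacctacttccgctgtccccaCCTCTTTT
Rpl4, chr9:64173347-64173416, plus strand: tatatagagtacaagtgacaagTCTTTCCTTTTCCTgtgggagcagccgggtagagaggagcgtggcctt
Rpl15, chr14:18270957-18271026, minus strand: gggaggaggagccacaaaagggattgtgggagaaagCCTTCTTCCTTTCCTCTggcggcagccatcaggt
Rpl28, chr7:4792925-4792994, plus strand: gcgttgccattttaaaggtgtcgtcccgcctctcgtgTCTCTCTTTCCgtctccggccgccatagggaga
Rps10, chr17:27635215-27635284, minus strand: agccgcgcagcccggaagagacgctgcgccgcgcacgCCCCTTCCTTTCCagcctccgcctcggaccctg
Rpl19, chr11:98026670-98026739, plus strand: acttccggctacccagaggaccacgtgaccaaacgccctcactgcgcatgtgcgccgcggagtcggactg
The run had 17 bases in Rpl15, 14 in Rpl4, 13 in Rps10 and 11 in Rpl28. In Rpl15, Rpl28 and Rps10 it began 3 or 4 bases before the annotated start and crossed it. Rps7 had 2 runs in this stretch: one of 8 bases that began 29 bases before the start, and one that began at base 23 from the start, with 8 bases up to the end of the stretch and 13 in the whole entry.

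The libraries held 19753100 to 35664331 counted reads. The summed level of 10 cardiomyocyte markers was 20244 to 34313 CPM over all hearts, with Myh6, Tnnt2 and Actc1 among them, so the labelled tissue had its defining transcripts. The targeted genes followed the labels by group mean but not in every heart. Ing5 stood at 33.5 ± 3.46 CPM in Ing4+/+ Ing5+/+ and 21.0 ± 2.75 in Ing4+/- Ing5-/- hearts (SD, n = 4), and reads over the whole gene do not measure the deleted part. Ing4+/+ Ing5-/- 1 had 29.3 CPM of Ing5, inside the Ing4+/+ Ing5+/+ range of 28.9 to 36.9. The library labelled Ing4+/+ Ing5+/+ 2 had 28.2 CPM of Ing4, below all 8 Ing4+/- hearts (32.0 to 36.3), while the other 3 of its group had 42.6 to 44.4. Haemoglobin genes took 4.68% of the reads in Ing4+/- Ing5-/- 2, 3.24% in Ing4+/+ Ing5-/- 4 and 0.488 to 1.95% in the others. Ing4+/- Ing5+/+ 4, Ing4+/+ Ing5-/- 1 and Ing4+/- Ing5-/- 2 were named as standing apart in earlier results of these data. Results are therefore also given without these 3 hearts and, where wild-type hearts enter, without Ing4+/+ Ing5+/+ 2. In whole hearts, fewer cells of a type and less RNA per cell cannot be told apart.

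The members' level was compared per length, as CPM divided by the deposited gene length in kilobases (CPM per kb). Rplp1, of the acidic stalk that recruits elongation factors, led with 1089 CPM per kb, followed by Rpl8, a protein near the catalytic centre, with 1087, and Rpl4, which lines the exit tunnel, with 945. Rpl31, at the rim of that tunnel, was lowest with 14.4, next to Rps15a with 15.1 and Rpl5 with 15.3. The deposited length of Rps15a, 5136 bases, was the largest of all members, and its 77.7 CPM were not low. The other stalk genes differed from Rplp1: Rplp0, the base of the stalk, had 715 CPM per kb, and Rplp2 had 79.0. Rpsa, the small-subunit protein also known as a laminin receptor precursor, had 168, and the X-linked Rps4x had 183. Neighbours in this order mostly differed by less than their range over the hearts, as the plot of levels shows.

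**Figure D1:**
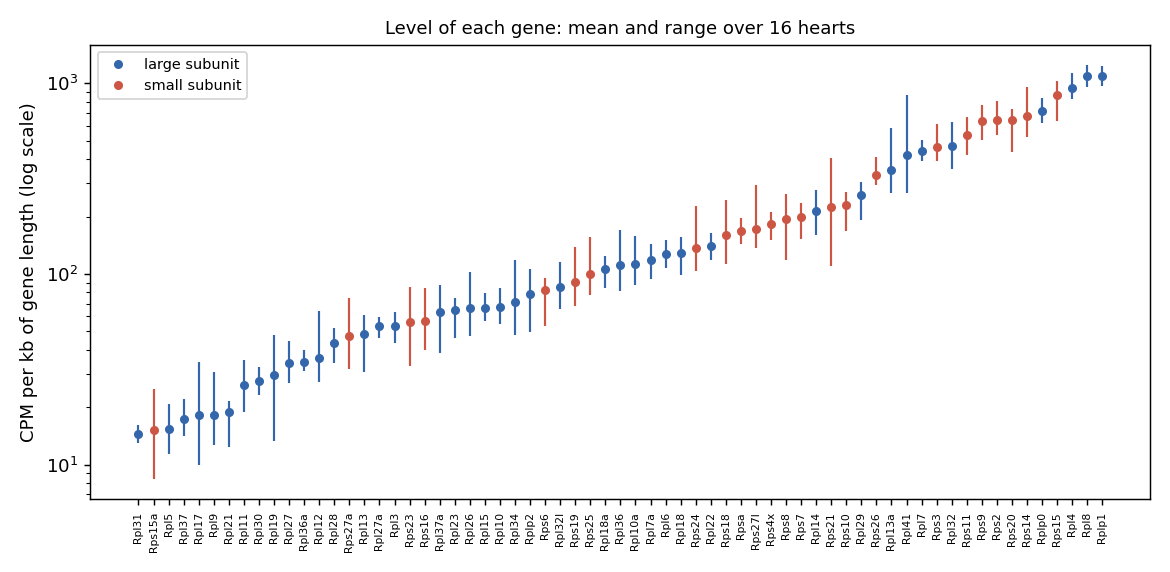
Mean CPM per kb of 65 of the 67 genes (points; blue large subunit, red small subunit) with the range over 16 hearts (vertical lines), on a log axis, ordered by level. Levels run from 14.4 (Rpl31) to 1089 (Rplp1) CPM per kb. Genes of both subunits are mixed down to Rps27a (47.1 CPM per kb). Below it the only small-subunit gene is Rps15a (15.1), which has the largest deposited length. Means use unscaled library sizes and ranges TMM-scaled ones.

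Many members share their sequence with other genes. The transcripts were split into all words of 75 bases, and the share of a member's words found in no other annotated gene was counted (66 members with a GENCODE M21 transcript). Rps3 was fully unique, while 15.4% of the words of Rpl36a and 15.9% of those of Rps6 were unique. Across members, CPM per kb had a Spearman rho of 0.35 with the unique share and of -0.43 with the number of genes that shared a word. Both are descriptions over 66 genes of the same 16 libraries. How the authors' counting treated reads that fit several genes is not given in the sources used here, and the part of shared sequence in a member's level was not tested. Just inside the threshold were Rpl9 (13.3 CPM), Rpl17 (14.1), Rpl11 (15.5), Rpl36a (16.8), Rpl30 (17.4) and Rpl31 (18.1). Just outside were Rps29 (8.76), Rpl24 (8.25), Rpl35 (7.57), Rps12 (7.35), Rps27 (7.26), Rpl35a (6.42), and below 5 CPM Rpl23a, Rps13, Rpl38, Rps28, Rpl39, Rpl3l, Rpl39l and Rpl10l.

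Rps27 was left out by its level. Its copy Rps27rt, on chromosome 9, held 201 CPM in the same table, against 7.26 CPM for Rps27 on chromosome 3. Their reading frames of 255 bases had 0 differences. Rps27l, a related gene that is a member, stood at 80.3 CPM and differed from Rps27 at 61 of the 255 bases (76.08% identity). The first 120 coding bases are given for the 3 genes, from GENCODE transcripts, with differences from Rps27 in capitals.
Rps27: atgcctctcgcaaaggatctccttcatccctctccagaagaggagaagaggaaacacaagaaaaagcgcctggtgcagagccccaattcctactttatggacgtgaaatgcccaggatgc
Rps27rt: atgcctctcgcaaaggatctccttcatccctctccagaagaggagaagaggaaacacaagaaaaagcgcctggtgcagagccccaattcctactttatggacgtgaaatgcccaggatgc
Rps27l: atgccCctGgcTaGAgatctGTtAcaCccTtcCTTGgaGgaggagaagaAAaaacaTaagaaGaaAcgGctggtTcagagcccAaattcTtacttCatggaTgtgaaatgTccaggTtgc
Rpl37, between Rpl17 and Rpl11 in level, likewise had a copy, Rpl37rt, with 257 CPM. The 34 named ribosomal pseudogenes in the table, among them Rpl6l with 224 CPM and Rps4l with 130.5, took 0.108 to 0.163% of the reads per heart. Rpl32l, a member by its RefSeq annotation as protein-coding, is listed as a processed pseudogene in GENCODE M21, so its 50.4 CPM are uncertain.

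Together the 67 members took 1.29 ± 0.0900% of the reads in Ing4+/- Ing5-/-, 1.19 ± 0.0871% in Ing4+/- Ing5+/+, 1.38 ± 0.146% in Ing4+/+ Ing5-/- and 1.24 ± 0.0997% in Ing4+/+ Ing5+/+ hearts (SD, n = 4). By heart the share was 1.31, 1.40, 1.27 and 1.19% in Ing4+/- Ing5-/- and 1.14, 1.29, 1.24 and 1.10% in Ing4+/- Ing5+/+. It was 1.60, 1.31, 1.29 and 1.31% in Ing4+/+ Ing5-/- and 1.26, 1.36, 1.19 and 1.13% in Ing4+/+ Ing5+/+. The ranges of neighbouring genotypes overlapped, but every Ing4+/+ Ing5-/- heart lay above every Ing4+/- Ing5+/+ heart, although the closest pair both round to 1.29%. Without Ing4+/+ Ing5-/- 1, the mean of its genotype was 1.30%. The Wilson 95% interval of the highest share, 1.60%, ran from 1.59 to 1.60%, and it covers counting error only. Large-subunit reads, summed over 41 members, exceeded small-subunit reads, summed over 26, in all hearts. Per member, the mean reads were lower for the large than for the small subunit in every heart. The ratio of the sums was 1.29 ± 0.0250 in Ing4+/- Ing5-/- and 1.33 ± 0.0426 in Ing4+/- Ing5+/+ hearts. It was 1.25 ± 0.0605 in Ing4+/+ Ing5-/- and 1.25 ± 0.0450 in Ing4+/+ Ing5+/+ hearts. The lowest ratio, 1.16, belonged to Ing4+/+ Ing5-/- 1 and the highest, 1.39, to Ing4+/- Ing5+/+ 4, the hearts with the highest and the lowest share.

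**Figure D2:**
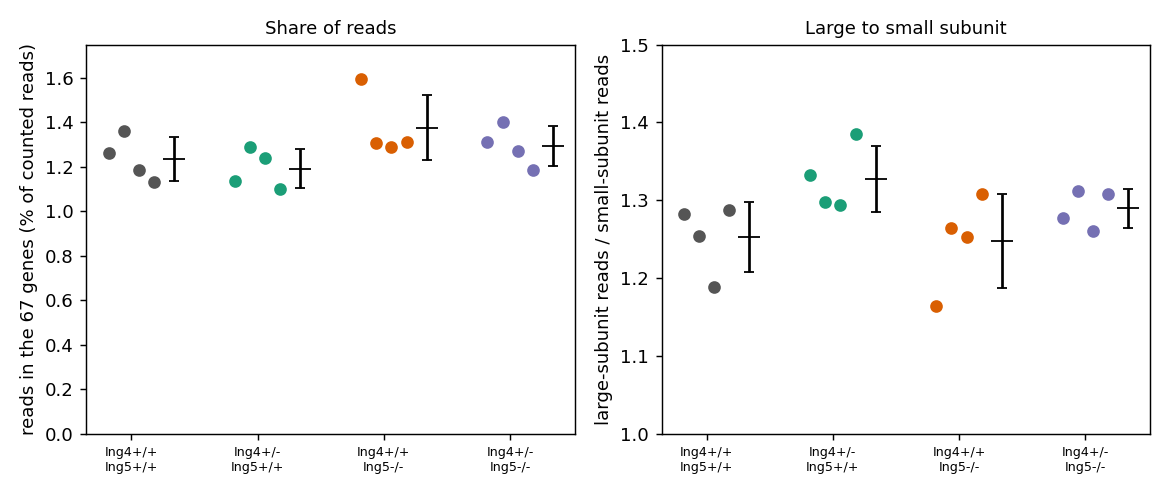
Left, reads in the 67 genes as a percentage of counted reads, and right, the ratio of large- to small-subunit reads (axis from 1 to 1.5), for each heart by genotype. Points are hearts and bars the mean ± SD (n = 4); the Ing4+/+ Ing5-/- heart at 1.60% lies above all others and has the lowest ratio, 1.16.

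Most members moved together from heart to heart. The first principal component of the members' log2 CPM took 73.1% of their variance over the 16 hearts and the second 9.59%. The first component of all 10207 genes with at least 10 CPM took 26.4%. A member's correlation with the median of the others had a median of 0.83 and ran from -0.24 (Rpl27) to 0.97 (Rpl32). It was low in the abundant Rpl4 (0.28) and Rpl8 (0.34), and in Rps7 (0.37). The median member lay 0.26 (log2) above its mean over hearts in Ing4+/+ Ing5-/- 1 and 0.20 above in Ing4+/- Ing5-/- 2. It lay 0.28 below in Ing4+/+ Ing5+/+ 3, 0.24 below in Ing4+/+ Ing5+/+ 4 and 0.21 below in Ing4+/- Ing5+/+ 4. Of the 67 members, 36 were highest in Ing4+/+ Ing5-/- 1 and 33 lowest in Ing4+/+ Ing5+/+ 3. High and low hearts were thus found within 1 genotype: Ing4+/+ Ing5+/+ 1 and 2 stood at 0.03 and 0.10, above hearts 3 and 4 of the same group. Other protein-coding genes shorter than 700 bases (173 genes) had medians of 0.20 in Ing4+/+ Ing5-/- 1, 0.17 in Ing4+/+ Ing5+/+ 2 and -0.18 in Ing4+/- Ing5+/+ 4, but 0.02 in Ing4+/+ Ing5+/+ 3 and -0.09 in Ing4+/- Ing5-/- 2. The part of transcript length in this was not tested. In Ing4+/- Ing5-/- 2 haemoglobin reads were also highest.

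**Figure D3:**
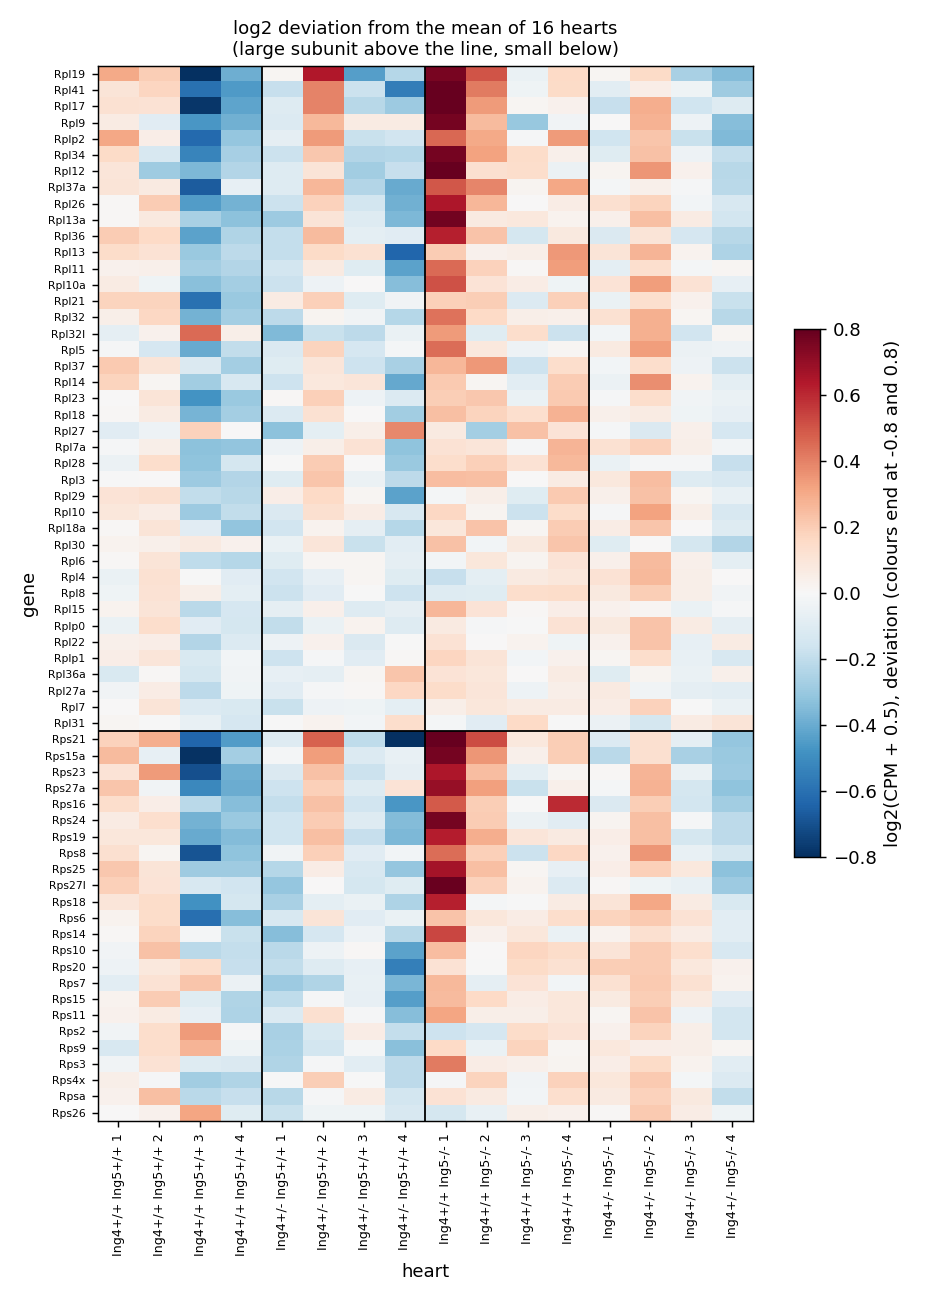
Deviation of the log2(CPM + 0.5) of 65 members from its mean over 16 hearts, with genes in rows (large subunit above the line, then small, each ordered by spread) and hearts in columns by genotype. Ing4+/+ Ing5-/- 1 is the reddest column and Ing4+/+ Ing5+/+ 3 the bluest, with medians over all 67 members of 0.26 and -0.28.

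Members differed in how far they moved. The SD of log2 CPM over the 16 hearts had a median of 0.20 over members (0.19 large, 0.21 small), against 0.14 for 9739 other protein-coding genes with at least 10 CPM and 0.17 for those under 700 bases. It was widest in Rps21 (0.47), Rpl19 (0.46), Rpl41 (0.42) and Rpl17 (0.41), and narrowest in Rpl31 (0.09). Short and weakly counted members varied most: the median SD was 0.24 for 22 members under 600 bases and 0.16 for 17 members of at least 1000 bases. For 23 members under 50 CPM it was 0.28, and for 18 members of at least 200 CPM it was 0.16. Across members the SD had a Spearman rho of -0.46 with CPM, -0.36 with length and -0.06 with the share of unique words.

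Rps21, a small-subunit protein of the RNA maturation step, stood at 76.8, 90.7, 79.0 and 66.7 CPM in Ing4+/- Ing5-/- and 77.4, 115, 72.1 and 42.9 in Ing4+/- Ing5+/+ hearts. It stood at 159, 119.6, 88.0 and 95.4 in Ing4+/+ Ing5-/- and 94.5, 102, 53.3 and 60.9 in Ing4+/+ Ing5+/+ hearts. The highest heart had 3.70 times the lowest, and the genotypes overlapped. Rpl41, the smallest ribosomal protein, ranged from 119.6 CPM in Ing4+/+ Ing5+/+ 3 to 390.2 in Ing4+/+ Ing5-/- 1, and the other 3 hearts of the latter genotype had 177 to 242. Rpl31 moved least, between 16.4 and 20.2 CPM, and its genotype means ran from 17.5 to 18.6. A few members went the other way in the heart where 33 of the 67 were lowest. In Ing4+/+ Ing5+/+ 3, Rps2, at the entry of the messenger RNA channel, reached its highest level of 809 CPM, as did Rps9 (539.5), Rps26 (184) and Rpl32l (68.3).

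The first comparison set hearts with 3 alleles lost against wild-type hearts. No member passed the test (edgeR quasi-likelihood test, threshold 0.05 for the p adjusted over all genes by Benjamini-Hochberg), against 0.855% of all genes tested. Most members were slightly higher in Ing4+/- Ing5-/- hearts: 55 of 67 had a positive log2 fold change, with a median of 0.10, beside 50.8% of all genes and a median of 0.00. An unadjusted p under 0.05 was reached by 4 members upwards and 0 downwards, 5.97% of members beside 6.4% of all genes upwards and 4.95% downwards, so the count was near the background. DESeq2 and limma-voom also called 0 members here. The 3 highest were Rps6, the substrate of S6 kinase, with 0.27 ± 0.12 (SE), Rpl5, which carries 5S RNA and binds Mdm2, with 0.27 ± 0.12, and Rpl10a with 0.27 ± 0.12 (adjusted p of 0.389, 0.392 and 0.401). The lowest was Rpl30, at 16.1, 17.3, 15.6 and 14.6 CPM in Ing4+/- Ing5-/- and 17.6, 17.8, 18.2 and 17.7 in Ing4+/+ Ing5+/+ hearts. It was the only member whose groups did not overlap, with all 4 Ing4+/- Ing5-/- hearts below, where 4.71% of all genes lay below and 5.45% above without overlap. Its log2 fold change was -0.16 ± 0.09 (edgeR adjusted p = 0.551). Rps27l at -0.10 ± 0.15 and Rpl32l at -0.09 ± 0.12 followed. The members' median was 0.16 without the library labelled Ing4+/+ Ing5+/+ 2, 0.03 without Ing4+/- Ing5-/- 2 and 0.03 without the 3 hearts that stood apart. Within litters 4 and 6, which held 1 heart of each genotype, it was 0.17 and 0.22, and with litter as a block 0.19. The heart of litter 4 with 3 alleles lost was Ing4+/- Ing5-/- 2. The 4 members with an unadjusted p under 0.05 became 9 with litter as a block and 2 without the 3 hearts, and 0 to 9 when 1 heart was left out. For such counts from other fits, here and below, the share over all genes was not computed.

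Against hearts that had lost 1 Ing4 allele, the comparison shows what went with the loss of both Ing5 alleles when 1 Ing4 allele was missing. Rps7 was the only member called, while 1.16% of all genes were, 0.76% upwards. This small-subunit protein takes part in maturation of the small-subunit RNA, binds Mdm2 and is among the anaemia genes. Rps7 (gene ID 20115, chromosome 12: 28630847 to 28635953, GRCm38) stood at 206, 219, 206 and 193 CPM in Ing4+/- Ing5-/- hearts. It stood at 155, 160.3, 182 and 147 CPM in Ing4+/- Ing5+/+ hearts, all below the former. The wild-type hearts had 179, 206, 221 and 184 CPM, the Ing4+/+ Ing5-/- hearts 228, 180.3, 205 and 187, and both groups reached into the Ing4+/- Ing5+/+ range. The group means were 206 ± 10.6 and 161 ± 15.2 CPM, and the log2 fold change was 0.36 ± 0.09 (edgeR adjusted p = 0.0499579). This call lay at the threshold. It was lost with litter as a block (adjusted p = 0.142), without the 3 hearts that stood apart (0.0852), with limma-voom (0.0506) and in 11 of the 16 fits that left out 1 heart, while DESeq2 gave 0.00645; over all alternatives the adjusted p ran from 0.00645 to 0.163. The direction was the same in all these fits, and the log2 fold change stayed between 0.28 and 0.42. Of the words of Rps7, 52.0% were unique, and 11 other genes shared at least 1 of the others.

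**Figure D4:**
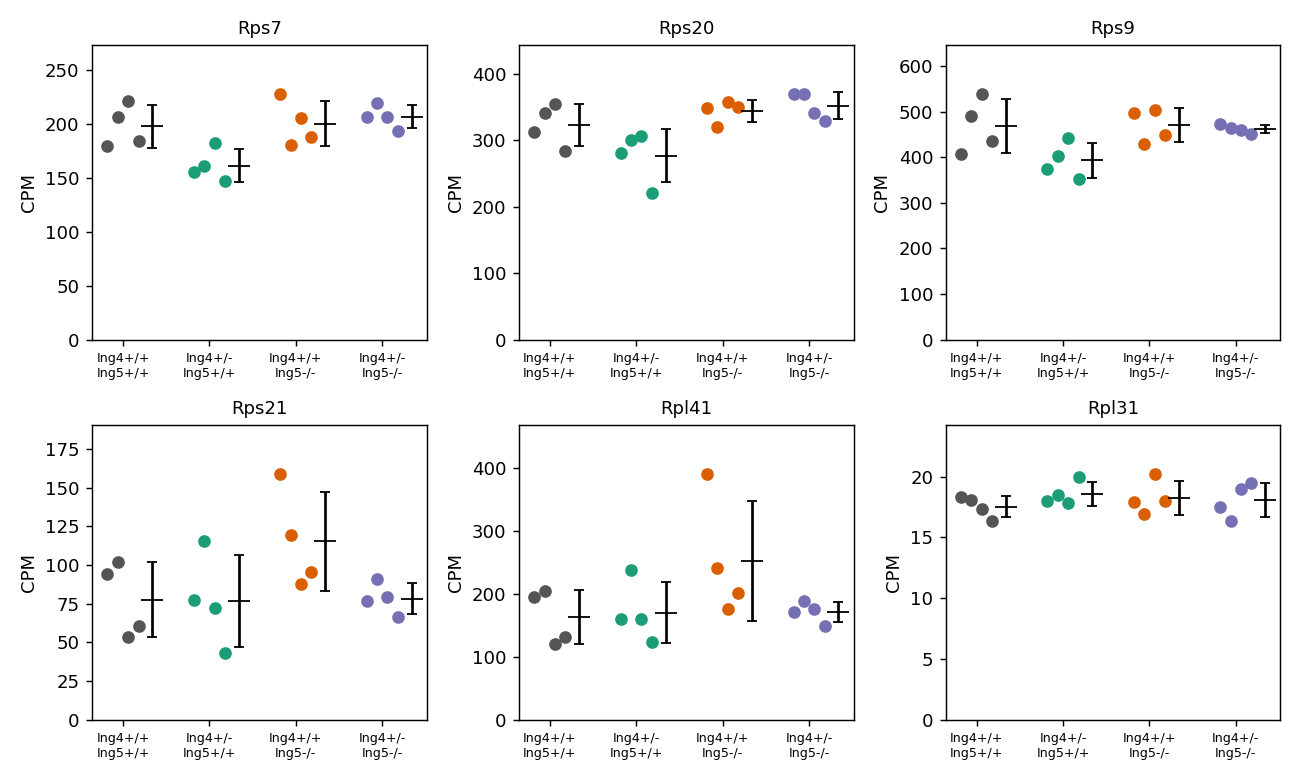
CPM of 6 members in each heart by genotype (points) with the mean ± SD (n = 4 hearts), each axis from 0. Rps7, Rps20 and Rps9 are lower in Ing4+/- Ing5+/+ than in Ing4+/- Ing5-/- hearts without overlap, Rps21 and Rpl41 are highest in 1 Ing4+/+ Ing5-/- heart, and Rpl31 varies least.

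In the same comparison 5 members, all of the small subunit, had every Ing4+/- Ing5-/- heart above every Ing4+/- Ing5+/+ heart. That is 7.46% of members, where 5.22% of all genes did so in that direction. Beside Rps7 these included Rps20, Rps9 and Rps26. Rps20, a head protein of the small subunit, had 369, 370.1, 341 and 329 CPM in Ing4+/- Ing5-/- and 281, 300.1, 307 and 220.0 in Ing4+/- Ing5+/+ hearts (0.35 ± 0.09, edgeR adjusted p = 0.0755). DESeq2 called it (adjusted p = 0.0146). Rps9 (0.23 ± 0.09, adjusted p = 0.228) and Rps26 (0.16 ± 0.08, adjusted p = 0.402) did not pass with DESeq2 either. Over all members, 52 of 67 were positive with a median of 0.10, beside 49.7% of all genes and a median of 0.00. An unadjusted p under 0.05 was reached by 9 members upwards and 0 downwards (13.4% of members upwards, beside 7.18% of all genes; 6.73% of all genes downwards). At the other end were Rps15a (-0.20 ± 0.20) and Rpl19 (-0.16 ± 0.30), with adjusted p of 0.717 or more. Rpl10a came after Rps7 and Rps20 with 0.26 ± 0.12 (adjusted p = 0.330). The median was 0.13 for small and 0.08 for large subunit members. Without the 3 hearts that stood apart the median of all members was 0.01 and 3 members had an unadjusted p under 0.05 (3 to 16 when 1 heart was left out). Within litters 4, 6 and 7 the median was 0.10, 0.05 and 0.08, each from 1 heart of each genotype compared. Litter 4 held Ing4+/- Ing5-/- 2 and litter 7 held Ing4+/- Ing5+/+ 4, which were among the 3 hearts.

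Set against hearts that kept both Ing4 alleles but lacked Ing5, most members were lower in Ing4+/- Ing5-/- hearts. The median log2 fold change was -0.11 and 55 of 67 were negative, beside 48.9% positive and a median of 0.00 over all genes. No member was called, beside 0.00634% of all genes. Unadjusted, 9 members had a p under 0.05 downwards (13.4%, beside 3.95% of all genes) and 0 upwards (2.68% of all genes). DESeq2 and limma-voom called 0 members. The lowest were Rpl41 (-0.56 ± 0.26), Rps21 (-0.56 ± 0.29) and Rps15a (-0.52 ± 0.20), with adjusted p of 0.718 to 0.782. Rpl4 (0.13 ± 0.08), Rps26 (0.09 ± 0.08) and Rpl8 (0.05 ± 0.08) were highest. All Ing4+/- Ing5-/- hearts lay below for 3 members, Rpl18 and Rpl28 among them, which is 4.48% of members where 1.64% of all genes did so. Without Ing4+/+ Ing5-/- 1 the members' median was -0.04 and without the 3 hearts that stood apart -0.10, and within litters 1 and 7 it was -0.19 and -0.25. Litter 1 set Ing4+/- Ing5-/- 1 against Ing4+/+ Ing5-/- 1 and 2, and litter 7 held 1 heart of each genotype compared. With litter as a block the median was -0.20, and 20 members had an unadjusted p under 0.05 downwards. This count was 4 without the 3 hearts and 1 to 17 when 1 heart was left out.

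Most members had higher values in Ing4+/+ Ing5-/- than in wild-type hearts, though no single member passed. Of 67 members 63 were positive, with a median of 0.22, beside 53.2% of all genes and a median of 0.01. An unadjusted p under 0.05 was reached by 27 members upwards and 0 downwards (40.3% of members, beside 6.09% of all genes upwards and 3.5% downwards). The lowest adjusted p was 0.338, for Rpl18, and edgeR called 0.0127% of all genes, while DESeq2 and limma-voom called 0 members. Rpl18, of the large subunit, had 103, 98.6, 95.7 and 106 CPM in Ing4+/+ Ing5-/- and 87.9, 91.1, 67.4 and 72.3 in Ing4+/+ Ing5+/+ hearts, a log2 fold change of 0.34 ± 0.09. It was the only member without overlap, where 2.48% of all genes lay above and 2.26% below without overlap. Rpl41 (0.63 ± 0.26), Rpl17 (0.61 ± 0.24) and Rps21 (0.57 ± 0.29) had the largest values, and Rps2 (-0.12 ± 0.10), Rps26 (-0.10 ± 0.08) and Rpl32l (-0.07 ± 0.12) the lowest. The medians of the large and small subunits were 0.22 and 0.23. The median of all members was 0.28 without the library labelled Ing4+/+ Ing5+/+ 2, 0.15 without Ing4+/+ Ing5-/- 1, 0.17 without Ing4+/+ Ing5+/+ 3 and 0.14 without the 3 hearts that stood apart. No litter held hearts of both genotypes, so litter and genotype cannot be told apart within this comparison. With litter as a block the median was 0.42, which rests on litters shared with hearts of the other genotypes. The 27 members with an unadjusted p under 0.05 became 13 without the 3 hearts, 11 without Ing4+/+ Ing5-/- 1, 9 without Ing4+/+ Ing5+/+ 4 and 6 without Ing4+/+ Ing5+/+ 3. This count was 32 with litter as a block and 6 to 37 when 1 heart was left out. Ing4+/+ Ing5-/- 1 also had the lowest cardiomyocyte and the highest epicardial marker level of the 16 hearts, and the part of these cells in its values was not tested.

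Hearts with 1 Ing4 allele lost were set against wild-type hearts. The members' median was 0.00, with 35 of 67 positive beside 51.6% of all genes, and no member or other gene was called (0% of all genes; DESeq2 and limma-voom also called 0 members). Small-subunit members had a median of -0.07 and large-subunit members of 0.03. With litter as a block the small-subunit median turned to 0.08, that of all members was 0.10 with 55 of 67 positive, and 0 members had an unadjusted p under 0.05. Unadjusted, 5 members had a p under 0.05, all downwards: Rps7, Rps9, Rpl32l, Rps2 and Rps20 (7.46% of members, beside 2.18% of all genes downwards and 2.55% upwards). Rps7 fell short of the threshold at -0.29 ± 0.09 (adjusted p = 0.963), as did Rpl32l at -0.33 ± 0.13 and Rps9 at -0.25 ± 0.09. Rpl9 (0.29 ± 0.19) and Rps15a (0.22 ± 0.20) were among the highest. Without the library labelled Ing4+/+ Ing5+/+ 2 the median was 0.06 and without the 3 hearts that stood apart 0.05, and within litters 4 and 6 it was 0.02 and 0.16 (0.0045 and 0.16 for the small subunit).

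The last comparison, between hearts without Ing5 and hearts with 1 Ing4 allele, had the largest median of the 6 over all 16 hearts. With litter as a block and without the 3 hearts that stood apart, the median of Ing4+/+ Ing5-/- against wild-type hearts was larger (0.42 beside 0.30, and 0.144 beside 0.136). In Ing4+/+ Ing5-/- against Ing4+/- Ing5+/+ hearts, 66 of 67 members were positive with a median of 0.25, beside 52.8% of all genes and a median of 0.01. All 26 small-subunit members were positive, with a median of 0.31, against 0.17 for the large subunit. No member was called, beside 0.0697% of all genes, and the lowest adjusted p was 0.205, for Rps7. Unadjusted, 26 members passed 0.05 upwards (38.8%, beside 6.35% of all genes) and 0 downwards (5.99% of all genes), while DESeq2 and limma-voom called 0 members. In 8 members every Ing4+/+ Ing5-/- heart lay above, which is 11.9% where 2.76% of all genes did so, among them Rpl7, Rpl18, Rpl32, Rps3, Rps15, Rps18 and Rps20. Rps21 (0.58 ± 0.29), Rpl41 (0.57 ± 0.26) and Rps16 (0.47 ± 0.16) were highest, and Rpl31 (-0.03 ± 0.09), Rpl27 (0.02 ± 0.13) and Rpl36a (0.04 ± 0.09) lowest. The median was 0.17 without Ing4+/+ Ing5-/- 1, 0.14 without the 3 hearts that stood apart and 0.28 within litter 7. Litter 7 set Ing4+/+ Ing5-/- 4 against Ing4+/- Ing5+/+ 4, and the latter is 1 of the 3 hearts that stood apart. The 26 members with an unadjusted p under 0.05 became 10 without the 3 hearts and 14 without Ing4+/+ Ing5-/- 1. This count was 24 with litter as a block and 14 to 37 when 1 heart was left out. The gap between subunits was narrower without the 3 hearts, with medians of 0.12 for the large and 0.15 for the small subunit. The comparisons share hearts, so their values are not independent of each other.

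**Figure D5:**
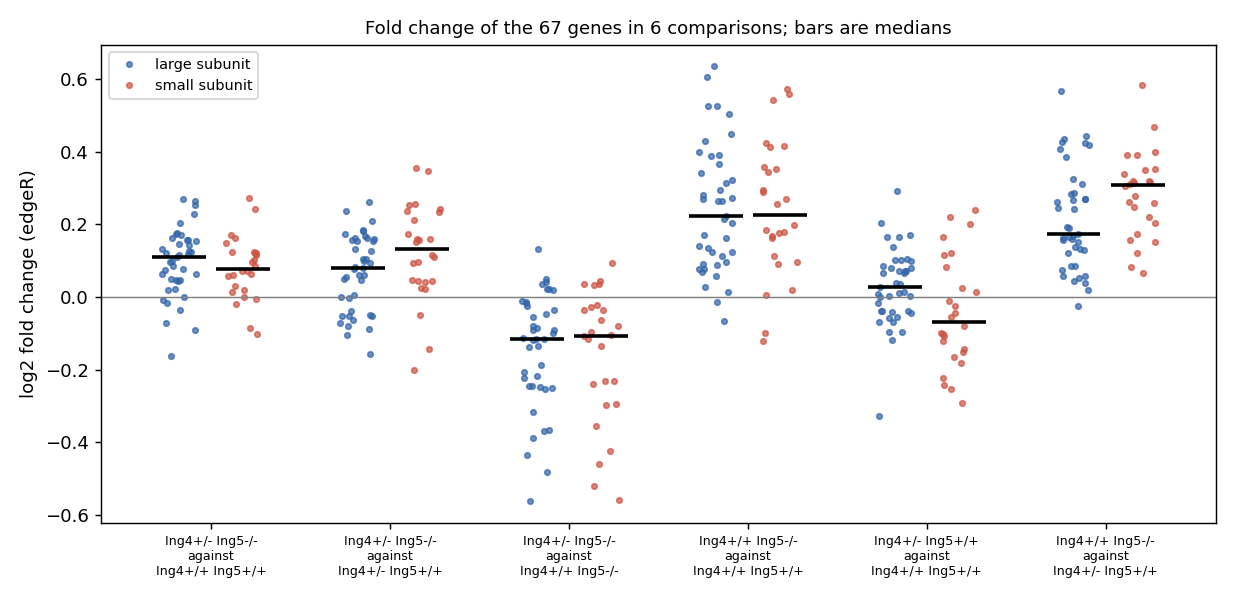
The log2 fold change (edgeR) of each of the 67 members in 6 comparisons of genotypes, large subunit in blue and small in red, with medians as black bars. Medians are 0.17 (large) and 0.31 (small) for Ing4+/+ Ing5-/- against Ing4+/- Ing5+/+ hearts, 0.22 and 0.23 for Ing4+/+ Ing5-/- against Ing4+/+ Ing5+/+ hearts, and near 0 for Ing4+/- Ing5+/+ against Ing4+/+ Ing5+/+ hearts.

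The interaction asks whether the Ing5 difference depended on Ing4. No member and no other gene was called (0% of all genes), and the members' median was -0.14, with 18 of 67 positive beside 48.4% of all genes. Unadjusted, 2 members passed 0.05 upwards and 3 downwards, beside 2.45 and 3.43% of all genes, and DESeq2 and limma-voom called 0 members. Rps7 was highest at 0.34 ± 0.12 (edgeR adjusted p = 0.830) and Rps15a lowest at -0.74 ± 0.29 (0.842). Without Ing4+/+ Ing5-/- 1 the median was -0.06, and without the library labelled Ing4+/+ Ing5+/+ 2 it was -0.18; without the 3 hearts that stood apart it was -0.16. With litter as a block the median was -0.32 with 9 of 67 positive, and 0 members passed the unadjusted 0.05 upwards and 15 downwards. A test of any difference among the 4 genotypes called 0 members and 0.982% of all genes; 15 members had an unadjusted p under 0.05, beside 12.1% of all genes, the lowest adjusted p was 0.131 for Rps7, and DESeq2 called Rps7 and Rps20.

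Further members with known roles are given for their place in the ribosome. Rpl11, the partner of Rpl5 in the 5S particle, had 15.4 ± 1.00 CPM in Ing4+/- Ing5-/-, 13.8 ± 2.01 in Ing4+/- Ing5+/+, 18.3 ± 2.48 in Ing4+/+ Ing5-/- and 14.2 ± 1.72 in the wild-type hearts. Rps19, the gene most often mutated in the anaemia, had 56.2 ± 8.05, 52.5 ± 9.79, 68.9 ± 13.0 and 51.7 ± 9.66 CPM in the same order, and Rps14, of the platform, 406 ± 24.4, 350.2 ± 30.9, 446 ± 86.4 and 397 ± 40.5. Rpl13a, also a regulator of translation in inflammation, had 601 CPM in Ing4+/+ Ing5-/- 1 and 359.9 to 373 in the other 3 hearts of that genotype. Rpl22, Rpl26, Rpl3 and Rpl10 did not pass in any of the 6 comparisons either.

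The surrounding machinery was compared in lists of other genes. Of 6 ribosomal genes left out by the symbol rule, among them Rps3a1 and Fau, 0 were called in any pairwise comparison. In Ing4+/+ Ing5-/- against wild-type hearts all 6 were positive, with a median of 0.21, from Rpl7l1 (0.08) to Rpl22l1 (0.50). Of 24 translation factors and other genes with pyrimidine-run messengers, 0 were called in any pairwise comparison, and the median in that comparison was 0.00, from Vim (-0.13) to Eif4a2 (0.29). Of 40 genes of ribosome biogenesis and RNA polymerase I, 0 were called, and the median was 0.04, from Bysl (-0.15), a factor of small-subunit assembly, to Nle1 (0.36), of large-subunit assembly. Of 20 regulators of ribosomal protein synthesis, 0 were called. Myc, the transcription factor that drives ribosome production, was highest among them in Ing4+/- Ing5-/- against wild-type hearts (0.69) and against Ing4+/- Ing5+/+ hearts (0.80), without passing. Of 78 mitochondrial ribosomal proteins 0 were called, with a median of -0.08 in Ing4+/- Ing5-/- against wild-type hearts, from Mrpl36 (-0.34) to Mrpl44 (0.09), and of -0.03 in Ing4+/+ Ing5-/- against wild-type hearts. The medians over all genes in the 2 comparisons were 0.00 and 0.01. In the 6 pairwise comparisons 0 to 1.16% of all genes were called. A count of 0 in lists of this size, here and below, is thus near the background.

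Markers of other cells moved with some of the genotypes. Of 8 macrophage markers 7 were called upwards in Ing4+/- Ing5-/- against wild-type hearts, beside 0.855% of all genes called. Against Ing4+/- Ing5+/+ hearts 2 were called upwards, beside 1.16% of all genes called. All 8 were positive in both comparisons. Their summed level was 37.4 to 58.5 CPM in Ing4+/- Ing5-/- and 12.3 to 19.6 in Ing4+/- Ing5+/+ hearts. It was 17.7 to 48.5 in Ing4+/+ Ing5-/- and 9.52 to 15.5 in the wild-type hearts. The 9 erythroid markers tested summed to 7914 to 49499 CPM in Ing4+/- Ing5-/-, 4919 to 19897 in Ing4+/- Ing5+/+, 5697 to 33880 in Ing4+/+ Ing5-/- and 9037 to 12013 in the wild-type hearts, with 0 called; Hbb-bt was not tested. The 7 epicardial markers summed to 347 to 1177 CPM in Ing4+/+ Ing5-/- and 376 to 579 in the other genotypes. Only Krt19 among them was called, upwards in 3 comparisons. These were Ing4+/- Ing5-/- against wild-type hearts (0.855% of all genes called) and against Ing4+/- Ing5+/+ hearts (1.16%), and Ing4+/+ Ing5-/- against Ing4+/- Ing5+/+ hearts (0.0697%). The other 6 epicardial markers were negative, without passing, in Ing4+/- Ing5-/- hearts against wild-type (median of the 7 of -0.38), Ing4+/- Ing5+/+ (-0.42) and Ing4+/+ Ing5-/- hearts (-0.72). All 7 were positive in Ing4+/+ Ing5-/- against wild-type hearts, with a median of 0.30. Of 5 endoderm and liver markers 2 were tested, Alb and Ttr. They summed to 19.4, 9.69, 0.397 and 0.718 CPM in the 4 Ing4+/+ Ing5-/- hearts and to at most 2.71 in the other genotypes, and neither was called. The cardiomyocyte markers summed to 20244, 32404, 34313 and 29646 CPM in the 4 Ing4+/+ Ing5-/- hearts and to 31814 to 33799 in the wild-type hearts, with 0 called. They summed to 28402 to 33027 CPM in Ing4+/- Ing5-/- hearts. In Ing4+/- Ing5+/+ hearts they summed to 28479 to 30437 CPM, below all wild-type hearts. Ing4+/+ Ing5-/- 1, where the members' share of reads was highest, was thus the highest heart for epicardial and for endoderm and liver markers and the lowest for cardiomyocyte markers. The 6 endothelial markers, at 569.6 to 934 CPM, had 0 called. The part of any of these cells in the members' values was not tested.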

How the data were processed

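Total RNA of hearts at embryonic day 10.5 was sequenced from stranded libraries, per the labels' protocols. The authors deposited raw counts of reads per gene; bcl2fastq, featureCounts and the mm10 build are named per the submitters' processing notes, while no aligner, annotation or rule for multi-mapping reads is named there. The deposited gene length in bases was used for CPM per kb. Of the gene IDs, 93.0% were matched to RefSeq symbols; the 1904 others held 2.08% of the reads. The labels do not state that each library came from 1 embryo, so p-values measure the spread between these libraries.

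The main test of the counts was that of edgeR 4.0.16 under R 4.3.3 (quasi-likelihood test, TMM factors of 0.967 to 1.08, biological coefficient of variation 0.159) on all 16 libraries, with Benjamini-Hochberg adjustment over 15785 genes. CPM by heart or genotype, and fold changes, used TMM-scaled library sizes. The membership threshold, mean levels over all hearts, CPM per kb, shares of reads and the CPM of ribosomal genes that are no members used unscaled ones. A standard error is the size of the log2 fold change divided by the square root of F. DESeq2 1.42.0, limma-voom (limma 3.58.1), other scalings, filters and samples, litter and replicate blocks and the level of Y-linked genes were alternatives. The fitting code was tested on simulated data.

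The members and lists were chosen with earlier results of these data known. A few genes are not reported here by name. Named were members with textbook roles, called members, the 3 highest and 3 lowest fold changes per comparison, the extremes of level, members near the threshold and those with 1 heart apart. The search for shared words, the promoter stretches shown and the members without overlap were chosen after values were seen.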

Additional observations from a re-analysis of the deposited data

Results flagged for a closer look

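Within each genotype, 1 heart was compared with the gap and range of the other 3 for the members' share of reads, the ratio of large- to small-subunit reads and 40 named members, 168 groups in all. In 7 of them 1 heart stood apart by Dixon's test; at the 95% level used, chance sets about 1 in 20 groups apart. Over all 67 members, 11 had such a heart in at least 1 of 268 groups.

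In Ing4+/+ Ing5-/- 1 the members took 1.60% of the reads, against 1.29 to 1.31% in the other 3 hearts. Rpl13a stood at 601 CPM in the same heart, against 359.9 to 373, and Rps3 at 1156 CPM, against 879 to 902. Ing4+/+ Ing5-/- 3 was low for Rpl21, with 32.2 CPM against 39.8 or more, and for Rpl23, with 65.7 CPM against 78.2 to 79.5. Ing4+/- Ing5-/- 2 was high for Rpl17, with 16.7 CPM against 11.9 to 12.6, and for Rps15a, with 82.3 CPM against 61.2 to 64.8.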

How the results depend on the processing

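The count of called members in Ing4+/- Ing5-/- against Ing4+/- Ing5+/+ hearts, 1 (Rps7), was 0 with TMM computed without the members, without haemoglobin genes, with limma-voom, with litter as a block, with the Y-linked level as a covariate and without the 3 hearts that stood apart. It was 3 with DESeq2 and 2 with a replicate block (Rps7, adjusted p = 0.0364 by edgeR, and Rps20, 0.0449). Same-numbered hearts of different genotypes deviated together in 10 of 24 pairs (correlation over 0.1), beside 26 of 72 differently numbered pairs. Hearts of the same litter did so in only 3 of 11 pairs, so such counts cannot decide whether the numbers paired the hearts. The replicate block is given only here. With it, the members with an unadjusted p under 0.05 were 37 upwards in Ing4+/+ Ing5-/- against Ing4+/+ Ing5+/+ and 36 upwards against Ing4+/- Ing5+/+. For Ing4+/- Ing5-/- they were 7 upwards against Ing4+/+ Ing5+/+, 10 upwards against Ing4+/- Ing5+/+ and 16 downwards against Ing4+/+ Ing5-/-. They were 2 upwards and 6 downwards in Ing4+/- Ing5+/+ against Ing4+/+ Ing5+/+, and 4 upwards and 17 downwards in the interaction. Shares of all genes with an unadjusted p under 0.05 were counted in the main fit only. The members' counts from fits with a block or without hearts thus have no background beside them. Among the 4 genotypes DESeq2 called 2 members. Leaving out 1 heart gave 0 to 3 called members in Ing4+/- Ing5-/- against Ing4+/- Ing5+/+ hearts, 0 to 1 among the 4 genotypes and 0 in the others.

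The members' median was compared with the pooled SD between hearts of 1 genotype, 0.145 (log2). It moved by less than this SD in 77 of 78 values from alternatives that left out no single heart. Only the medians of Ing4+/+ Ing5-/- against Ing4+/+ Ing5+/+ and against Ing4+/- Ing5+/+ hearts were themselves larger than this SD. For the other comparisons the count therefore cannot show that a median held. In Ing4+/+ Ing5-/- against Ing4+/+ Ing5+/+ hearts the median moved to 0.42 with the litter block. With 1 heart left out it ran from 0.15 to 0.29 there, from 0.17 to 0.29 in Ing4+/+ Ing5-/- against Ing4+/- Ing5+/+, from -0.07 to 0.06, across 0, in Ing4+/- Ing5+/+ against Ing4+/+ Ing5+/+, and for Ing4+/- Ing5-/- from 0.03 to 0.16 against Ing4+/+ Ing5+/+, -0.17 to -0.04 against Ing4+/+ Ing5-/- and 0.04 to 0.17 against Ing4+/- Ing5+/+.

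The large minus small subunit median moved to 0.0588 in Ing4+/+ Ing5-/- against Ing4+/+ Ing5+/+ and to -0.0345 in Ing4+/+ Ing5-/- against Ing4+/- Ing5+/+ hearts without the 3 hearts. With the litter block it moved to 0.0205 in Ing4+/- Ing5+/+ against Ing4+/+ Ing5+/+ and -0.0113 in Ing4+/+ Ing5-/- against Ing4+/- Ing5+/+. Over the 13 members with at least 90% unique words, an alternative chosen after seeing the data, it was 0.12, 0.0038 and 0.0659 for Ing4+/- Ing5-/- against Ing4+/+ Ing5+/+, Ing4+/- Ing5+/+ and Ing4+/+ Ing5-/-. With 1 heart left out it ran from -0.0623 to 0.0589, -0.13 to -0.0157, 0.062 to 0.15, 0.00555 to 0.0529, -0.0378 to 0.0211 and -0.084 to -0.0165, in the order of the medians above.

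Direction turned with the litter block for Rps2 (0.15) and Rps26 (0.14) in Ing4+/+ Ing5-/- against Ing4+/+ Ing5+/+, Rpl27 (-0.18) in Ing4+/+ Ing5-/- against Ing4+/- Ing5+/+ and Rpl32l (0.0288) in Ing4+/- Ing5-/- against Ing4+/+ Ing5+/+. Without the 3 hearts it turned for Rpl31 (0.0213) in Ing4+/+ Ing5-/- against Ing4+/- Ing5+/+ and Rpl8 (-0.0347) in Ing4+/- Ing5-/- against Ing4+/+ Ing5-/-. With 1 heart left out, ranges crossed 0 for Rpl32l (-0.17 to 0.0596) in Ing4+/+ Ing5-/- and (-0.18 to 0.035) in Ing4+/- Ing5-/- against Ing4+/+ Ing5+/+, Rpl31 (-0.0775 to 0.0103) and Rpl27 (-0.0844 to 0.16) in Ing4+/+ Ing5-/- against Ing4+/- Ing5+/+, and Rpl19 (-0.29 to 0.11) in Ing4+/- Ing5-/- against Ing4+/- Ing5+/+. The causes were not tested.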
